A study of Mus musculus with 22 samples.

Results

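Astrocyte mRNA of the optic nerve head (ONH) was compared with that of the proximal optic nerve (ONP) 30 days after the eyes were injected with microbeads, over all genes measured. The members are the 7 ONH and 7 ONP libraries whose labels give that time point, 14 of the 22 libraries in the series. The study followed mouse optic nerve astrocytes in a microbead model of ocular hypertension, the raised eye pressure that is a risk factor for glaucoma. The beads block the outflow of fluid from the front of the eye. Ribosomes were pulled down from each tissue by the RiboTag method, so that the sequenced mRNA is enriched for transcripts on astrocyte ribosomes. The other 8 libraries were taken 7 days after the injection, 4 from each region. By the methods the beads went into a single eye of each mouse to raise its pressure, and the other eye was left untreated. Both regions lay behind an injected eye, and uninjured nerves are not analysed here. Each difference below is therefore between 2 regions of injured tissue.

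All groups share 1 cross. In the labels its parents are B6.Cg-Tg (GFAP-Cre), line 73.12Mvs/J, and B6J.129(Cg)-Rpl22tm1.1Psam/SjJ, and the genotype is entered as WT. According to the methods the experimental mice were 3 to 4 months old, carried the tagged allele on both chromosomes (Rpl22HA/HA) and carried Cre. Cre was driven constitutively by a mouse Gfap promoter, so any cell whose lineage used that promoter carries the tag, and a transcript in these libraries need not come from an astrocyte. In nerves of bead-injected eyes the study found the tag with an astrocyte marker and not with markers of microglia, oligodendrocytes or NG2 glia. By its RT-qPCR on ONH tissue at 7 days, pulled-down RNA was enriched only for astrocyte markers. Each library pooled tissue of 4 mice, 2 male and 2 female, and by the methods both regions were taken from the same mice. Libraries of the same number were treated as pairs, a link that the labels do not spell out. The 7 pairs, not single animals, are the replicates.

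Astrocytes are the main glial cell of the ONH, the place where axons of retinal ganglion cells leave the eye. In the mouse this stretch is unmyelinated and its astrocyte processes form a meshwork around the axon bundles. Behind it, in the ONP, oligodendrocytes wrap the axons in myelin, and astrocytes share the tissue with them. Astrocytes buffer potassium, take up glutamate, supply lactate and lipid to axons and oligodendrocytes, and lay down and remodel extracellular matrix, and these duties order the results below.

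The libraries were of similar depth. The study reports a lower typical yield of pulled-down RNA for ONH pools than for ONP pools, and its part here was not tested. Library totals ran from 18026821 to 24746846 counts in the ONH and from 17583904 to 25197193 in the ONP. Levels are given in CPM, counts scaled to a common library size with edgeR's TMM factors, and at this depth 3 counts correspond to 0.120 to 0.167 CPM. All genes with the symbol prefix mt-, a wider set than the 13 mitochondrially encoded protein genes, took 0.265 to 0.633% of counts in the ONH. In the ONP they took 0.0812 to 0.332%, with the ONH higher in 7 of 7 pairs (two-sided exact permutation test over pairs, p = 0.0156, the smallest that 7 pairs can give, adjusted p = 0.0625 over 4 library measures). The summed CPM of the 13 protein genes alone was higher in the ONH in 6 of 7 pairs. The 100 most counted genes took 27.7 to 31.3% of ONH counts and 28.9 to 31.2% of ONP counts, higher in the ONH in 1 of 7 pairs (same exact test, p = 0.0312, adjusted p = 0.0625).

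Astrocyte markers were high in both regions, and markers of several other cell types came with them. The summed level of 15 astrocyte markers ran from 51127 to 84105 CPM (median 65109) in the ONH and from 36006 to 68284 CPM (median 61719) in the ONP. Marker sums of myelinating oligodendrocytes (14 genes) were 14003 to 42233 CPM (median 19314) in the ONH and 26432 to 85729 CPM (median 54569) in the ONP, lower in the ONH in 7 of 7 pairs. Sums for microglia and macrophages (14 genes) spanned 309 to 6271 CPM (median 770.1) and 381 to 7366 CPM (median 629), and in both regions replicate 7 was the highest. Photoreceptor markers (16 genes) summed to 175 to 2781 CPM (median 321) in the ONH, where replicate 4 stood far above the rest, and to 33.3 to 81.2 CPM (median 42.2) in the ONP. Markers of the retinal pigment epithelium (8 of 9 genes in the table) summed to 153 to 1978 CPM (median 302) and 41.4 to 82.2 CPM (median 64.7), again with ONH replicate 4 on top. Markers of the pituitary, a tissue outside the eye, reached 229 CPM in ONH replicate 7 and 38.6 CPM in ONH replicate 4 against at most 9.99 CPM in any ONP library, and red blood cell genes reached 2611 CPM in ONH replicate 7. Replicates 4, 5 and 7 therefore stand apart in at least 1 of these sums. The counts over all genes and those of some lists are also given without these 3 pairs. Where a list has no such count, nothing is said on its stability in that setting. How far RNA of other cell types contributed to the differences below was not tested, and in pooled tissue fewer cells of a type and less RNA per cell cannot be told apart.

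**Figure D1:**
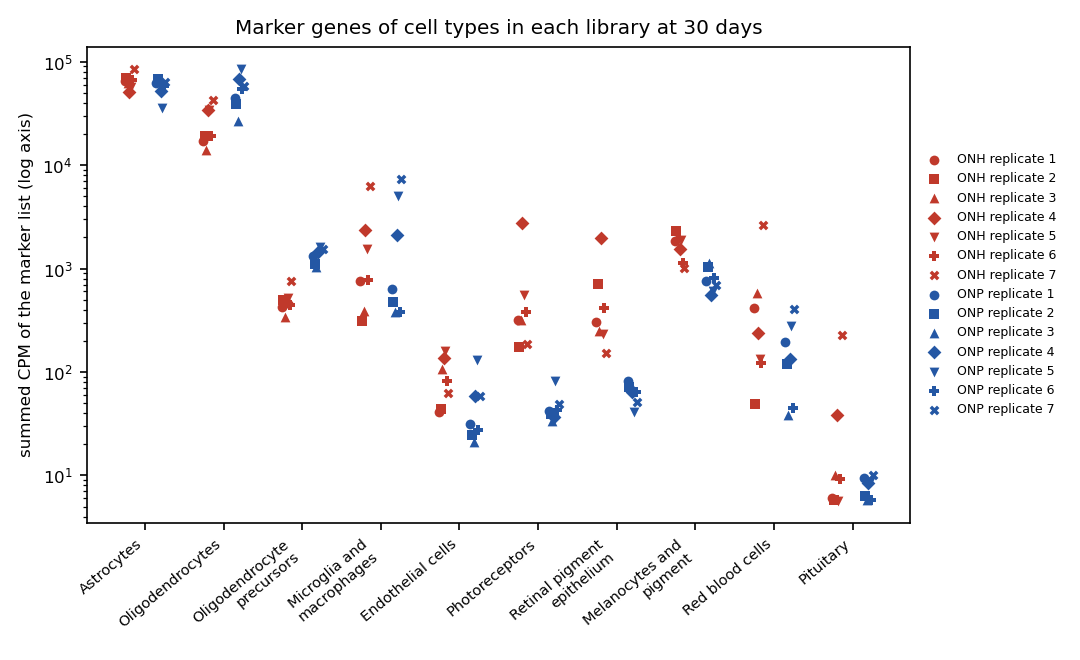
Summed CPM of marker genes on a log axis, 1 point per library, with ONH libraries in red, ONP libraries in blue and a marker shape for each replicate number. Oligodendrocyte and precursor sums lie lower in the ONH, photoreceptor and pigment epithelium sums lie higher there with ONH replicate 4 on top, and microglial sums are highest in replicate 7 of both regions.

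Gene expression differed widely between the regions. Of 15133 genes tested with edgeR's quasi-likelihood test and the replicate pair as a block, 3340 were higher and 3377 lower in the ONH at a Benjamini-Hochberg adjusted p under 0.05, so that 44.4% of all genes tested were called, 22.1% higher and 22.3% lower. Changes of moderate size were about equally often higher and lower, and the most extreme ones were more often higher. Among called genes 1098 were more than 2-fold higher and 1232 more than 2-fold lower, while 59 were more than 32-fold higher and 9 more than 32-fold lower. All 7 ONH libraries lay above all 7 ONP libraries for 1402 genes (9.26% of those tested) and below them for 1073 genes (7.09%). The median log2FC (log2 of ONH over ONP) of all genes tested was -0.02, with an interquartile range of -0.49 to 0.44. Without pairs 4, 5 and 7, 1719 genes were higher and 1906 lower, and 3490 of the 6717 calls were made again. The shares of 22.1% and 22.3% and the median of -0.02 are the background for every list of genes below. List counts given without pairs 4, 5 and 7 are to be read against the 1719 and 1906 genes of that fit. Of the 35 gene lists, 10 had both shares within 10 percentage points of the background, namely matrix glycoproteins, matrix proteases, BMP and TGF-beta, FGF, Notch and Hedgehog, mechanosensitive channels, glycolysis, complement, immediate early and cell cycle genes. So had 2 of the 18 cell type lists, fibroblasts and retinal ganglion cells. The counts of these 12 lists are no result about the list, and their single members are given as such.

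Gene by gene, ONH libraries varied more among themselves, and the regions parted on the leading axis of variation. On the leading principal component of the 2000 most variable genes (47.8% of variance) ONH scores ran from 16.6 to 45.9 and ONP scores from -39.6 to -32.7, with ONH replicate 7 nearest to the ONP. On component 2 (25.4%) the regions overlapped, at -41.4 to 25.7 in the ONH and -41.9 to 34.3 in the ONP. Over 8601 genes with at least 10 CPM in both regions, the median SD of log2 levels between libraries was 0.298 in the ONH and 0.220 in the ONP, and the SD was larger in the ONH for 67.7% of the genes.

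**Figure D2:**
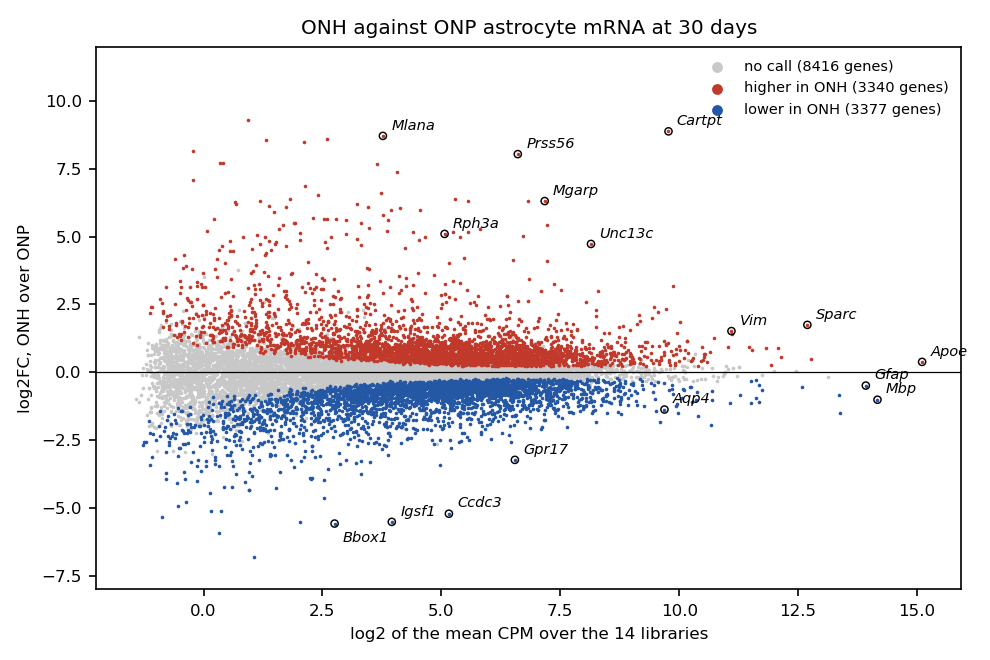
Log2FC of ONH over ONP for 15133 genes against the log2 of the mean CPM over the 14 libraries, with 3340 genes called higher in the ONH in red, 3377 called lower in blue and the other genes in grey. Cartpt, Prss56 and Mgarp lie far above 0 at moderate to high levels, and Gpr17, Igsf1, Bbox1 and Ccdc3 lie far below it.

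Of the 6 genes with the highest mean CPM in each region 4 were shared, namely Apoe, Gfap, Mbp and Prdx6. CPM counts reads, is not corrected for transcript length, and so ranks genes by reads and not by transcripts. Apoe, the carrier of lipid between glia and neurons, was detected at 31301 to 61758 CPM (median 37826) in the ONH and 19365 to 41488 CPM (median 31316) in the ONP (log2FC 0.38 ± 0.11, adjusted p = 0.0168), a call that was not made without the replicate block (adjusted p = 0.102). Gfap, the intermediate filament that defines astrocytes, was at 9053 to 16773 CPM (median 12662) and 10834 to 23068 CPM (median 19182), with overlapping ranges and the ONH lower in 6 of 7 pairs. Its log2FC was -0.49 ± 0.15 (adjusted p = 0.0229), and the call was lost without replicate 1 (adjusted p = 0.0717), 4 (0.0638) or 6 (0.0628). Prdx6, a peroxidase of oxidised phospholipids, was not called (7014 to 8958 CPM (median 8411) against 6017 to 12700.5 CPM (median 10423), log2FC -0.18 ± 0.12, adjusted p = 0.261). The matrix glycoprotein Sparc was among the 6 genes with the most reads only in the ONH, at 7579 to 13764 CPM (median 9819.9) against 2552 to 3670.1 CPM (median 2978), with no overlap. It was 3.36-fold higher there (log2FC 1.75 ± 0.10, adjusted p = 7.36e-07). Ckb, brain creatine kinase, was 1.41-fold higher in the ONH (adjusted p = 0.00189), and the iron carrier Trf was 1.8-fold lower (adjusted p = 0.00219), with ranges that overlapped for both.

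Astrocyte markers moved in both directions. Of the 15, 6 were higher and 5 lower in the ONH, with a median log2FC of 0.08 against -0.02 over all genes (3 higher without the replicate block). Higher were Nes, Vim, S100b, Slc1a3, Glul and Apoe, and lower were Gjb6, Aqp4, Fgfr3, Slc1a2 and Gfap. The intermediate filament genes thus divided. Nes (nestin) ran at 115 to 283 CPM (median 199) in the ONH and 22 to 39.4 CPM (median 31) in the ONP without overlap, 6.14-fold higher (log2FC 2.62 ± 0.20, adjusted p = 5.21e-06). Vim (vimentin) was 2.87-fold higher (2283 to 4296 CPM (median 3529.9) against 787 to 1532 CPM (median 1149), adjusted p = 7.37e-06), also without overlap, while Gfap was lower as given above. S100b, a calcium-binding protein, was 1.67-fold higher (adjusted p = 7.28e-04). The gap junction gene Gjb6 ran at 18.4 to 31.3 CPM (median 23.9) in the ONH and 42.5 to 131 CPM (median 101) in the ONP, 3.54-fold lower in the ONH (adjusted p = 6.14e-05). Aqp4, the water channel of astrocyte endfeet, ran at 317 to 629 CPM (median 423) and 566 to 1719 CPM (median 1217), lower in the ONH in 7 of 7 pairs although the ranges overlapped (log2FC -1.38 ± 0.16, adjusted p = 8.46e-05). The growth factor receptor gene Fgfr3 was 1.91-fold lower (adjusted p = 0.00106). The glutamate transporter genes divided, with Slc1a2 (GLT-1) 1.71-fold lower (adjusted p = 6.20e-04) and Slc1a3 (GLAST) 1.59-fold higher in the ONH (adjusted p = 8.62e-04). The Slc1a3 call was lost without the replicate block (adjusted p = 0.0555).

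Among genes with a mean of at least 100 CPM in the ONH the largest fold belonged to Cartpt, which encodes the precursor of the CART neuropeptides (mm10, chr13:99898489-99901091, minus strand). Its level was 903 to 2474 CPM (median 1665) in the ONH and 1.81 to 7.2 CPM (median 3.7) in the ONP. The lowest ONH library thus lay 2 orders of magnitude above the highest ONP library, and the fitted difference was 474-fold (log2FC 8.89 ± 0.26, adjusted p = 4.79e-09). Scg2, the precursor of secretogranin neuropeptides (chr1:79434669-79440120, minus strand), ran at 9.73 to 127 CPM (median 26.1) and 0.279 to 2.58 CPM (median 0.814), 36.1-fold higher in the ONH (adjusted p = 5.97e-05). Mgarp, a protein of the mitochondrial membrane (chr3:51388412-51396738, minus strand), had the smallest p of any gene. It was detected at 160.0 to 399 CPM (median 316) and 2.76 to 4.55 CPM (median 3.09), 79.7-fold higher in the ONH (log2FC 6.32 ± 0.16, adjusted p = 1.99e-09).

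The promoters of these 3 genes, all with a wide regional difference, are printed as examples picked by hand. Several genes with a wider difference than Scg2 are not printed. In each printed promoter lies 1 match to a short element that is textbook knowledge for its class. Because of that choice the matches are no result about genes with wide differences. Each window covers 250 bases before to 50 after the start of the gene as RefSeq places it, which for all 3 lies inside the gene positions given above, since those come from the GENCODE annotation and its outermost transcript (RefSeq, GRCm38.p6, all on the minus strand, written 5′ to 3′ along the gene). Capitals mark the cyclic AMP response element TGACGTCA in Cartpt and Scg2, and in Mgarp they mark CACGT, which is the hypoxia response core ACGTG read on the other strand.
Cartpt, chr13:99900634-99900933: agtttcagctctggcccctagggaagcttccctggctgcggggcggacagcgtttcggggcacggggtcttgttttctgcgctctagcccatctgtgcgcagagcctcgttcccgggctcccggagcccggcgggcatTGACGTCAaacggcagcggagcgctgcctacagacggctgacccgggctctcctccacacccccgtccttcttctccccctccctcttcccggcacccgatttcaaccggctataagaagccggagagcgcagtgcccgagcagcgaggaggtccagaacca
Scg2, chr1:79439977-79440276: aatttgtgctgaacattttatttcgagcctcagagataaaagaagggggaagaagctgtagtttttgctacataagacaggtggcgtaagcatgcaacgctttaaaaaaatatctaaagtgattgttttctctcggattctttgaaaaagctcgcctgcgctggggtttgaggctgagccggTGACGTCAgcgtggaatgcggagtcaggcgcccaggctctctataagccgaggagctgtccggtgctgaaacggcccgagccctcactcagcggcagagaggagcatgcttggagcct
Mgarp, chr3:51396498-51396797: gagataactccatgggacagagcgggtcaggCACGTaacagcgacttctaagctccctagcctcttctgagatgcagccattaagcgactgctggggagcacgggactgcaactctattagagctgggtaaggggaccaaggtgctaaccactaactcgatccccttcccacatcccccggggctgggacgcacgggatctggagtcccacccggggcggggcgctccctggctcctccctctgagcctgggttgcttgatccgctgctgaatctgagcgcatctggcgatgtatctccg
Searched on both strands, TGACGTCA lay in 5 of the 25 genes of the neuropeptide list that had a promoter in the table, against 549 of 27025 genes in all (2.03%). Of those 5, Cartpt and Scg2 were called higher in the ONH and the other 3 were not called or not tested. ACGTG lay in 15 of 19 hypoxia target genes and in 21.78% of all genes, and CACCCCAC, the core of the sterol response element, in 2 of 18 cholesterol synthesis genes and in 3.3% of all genes. A match is a stretch of letters and was not tested as a binding site.

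Mgarp, Cartpt, Tmem37 and Bok had the smallest p in a list of 10 genes that the study names for the ONH. All 10 were higher in the ONH without overlap, with a median log2FC of 4.55. The study named these genes in part from libraries of this series, so the count is not independent evidence of their direction. Tmem37, a protein related to calcium channel subunits, ran at 136 to 263 CPM (median 217) in the ONH and 14.8 to 24.3 CPM (median 19.7) in the ONP, 11-fold higher (adjusted p = 2.60e-07). Bok, a cell death regulator of the Bcl-2 family, was 7.45-fold higher (52.3 to 81 CPM (median 56.3) against 6.39 to 9.07 CPM (median 8.22), adjusted p = 2.60e-07). Among the other genes with the smallest p were Abi3bp, a matrix protein, 12.1-fold higher (36.1 to 77.1 CPM (median 42.1) against 2.49 to 7.07 CPM (median 3.96), adjusted p = 8.95e-08), and Clrn1, the clarin of Usher syndrome, 12.7-fold higher (34 to 51.8 CPM (median 42.3) against 2.23 to 4.09 CPM (median 3.6), adjusted p = 2.60e-07). None of these ranges overlapped. Prss56, a secreted serine protease known from the eye, ran at 87.1 to 329.6 CPM (median 196) in the ONH and 0.112 to 1.24 CPM (median 0.692) in the ONP, 265-fold higher (adjusted p = 2.94e-07). The pair Unc13c and Rph3a, which prime and tether secretory vesicles in neurons, were also high in the ONH, Unc13c at 269 to 857 CPM (median 471) against 14.4 to 27.3 CPM (median 18.3) and Rph3a at 25.3 to 104 CPM (median 62.2) against 1.12 to 2.58 CPM (median 1.84), 26.6-fold and 34.4-fold higher. Clec18a, a C-type lectin, was 207-fold higher (13.5 to 41.8 CPM (median 21.3) against 0 to 0.28 CPM (median 0.104)), and its log2FC moved from 7.69 to 8.29 without replicate 7.

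**Figure D3:**
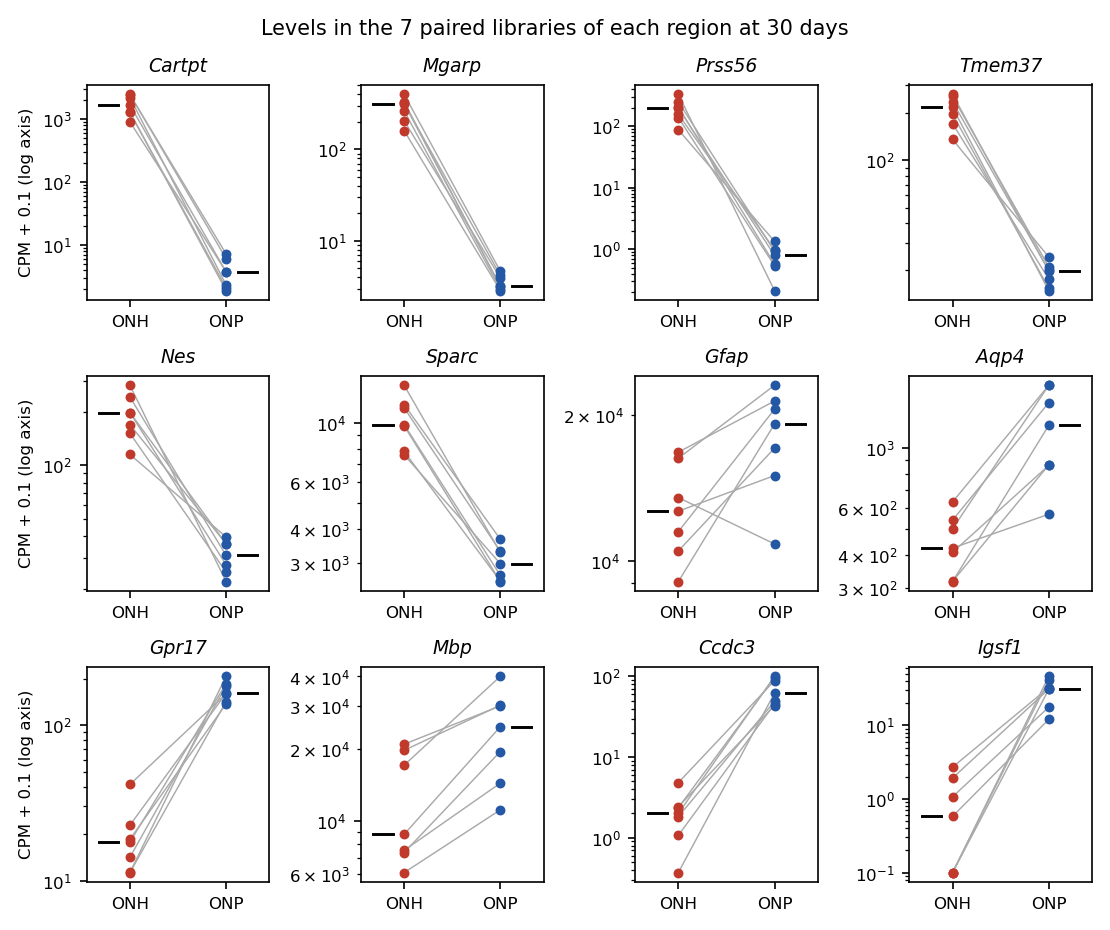
CPM plus 0.1 on log axes for 12 genes in the 7 ONH (red) and 7 ONP (blue) libraries at 30 days, with lines joining libraries of the same number and black bars at the medians. Cartpt, Mgarp, Prss56, Tmem37, Nes and Sparc lie higher in every ONH library, Gpr17, Ccdc3 and Igsf1 lie lower in every ONH library, and Gfap, Aqp4 and Mbp overlap between regions.

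Several of the largest folds belonged to genes of the outer retina and of pigment cells, tissues that border the ONH. Of 15 photoreceptor markers tested, 14 were higher in the ONH and none lower, with a median log2FC of 5.19, and 11 were separate between regions. Sag (arrestin) ran at 24.4 to 342 CPM (median 53) in the ONH and 0.643 to 11.3 CPM (median 1.05) in the ONP, and Prph2 (peripherin of the outer segment) at 19.8 to 434 CPM (median 37.6) and 0.0857 to 4.82 CPM (median 0.508). They were 36.5-fold and 79.7-fold higher in the ONH, and ONH replicate 4 was the highest library for both. Without replicate 4 their log2FC were 4.75 and 5.77, and without pairs 4, 5 and 7 they were 5.58 and 6.92, still past the threshold. Without replicate 5 the Prph2 value was 7.2. Nr2e3, a nuclear receptor of photoreceptors, was at 1.55 to 40.6 CPM (median 4.0) in the ONH and at no more than 3 counts in any ONP library, and Grk1, a kinase of photoreceptors, was at 1.35 to 30.9 CPM (median 3.84) and 0 to 0.36 CPM (median 0). The Grk1 log2FC of 6.88 became 9.53 without replicate 7.

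Pigment epithelium and melanocyte genes followed the same direction. Of 7 tested markers of the retinal pigment epithelium 6 were higher in the ONH (median log2FC 5.65), and of 14 pigment cell genes 12 were higher and 1, Sox10, was lower (median 4.65). Ttr, the thyroxine carrier secreted by pigment epithelium, ran at 22.6 to 247 CPM (median 62.2) in the ONH and 0 to 1.62 CPM (median 0.959) in the ONP, 84.1-fold higher (adjusted p = 4.19e-06). Rpe65, the isomerase of the visual cycle, ran at 2.96 to 78.5 CPM (median 11.2) and 0 to 1.88 CPM (median 0.12) (log2FC 6.09 ± 0.81, 7.41 without replicate 1). Among melanosome genes Dct ran at 30.8 to 219 CPM (median 101) and 1.63 to 3.64 CPM (median 1.95), Pmel at 20.4 to 177 CPM (median 54.2) and 0.779 to 2.36 CPM (median 1.79), and Mlana at 8.04 to 57.6 CPM (median 23) and 0 to 0.28 CPM (median 0). Their ranges did not overlap, and Dct and Pmel were 39.2-fold and 35.7-fold higher in the ONH. Dct also belongs to the genes that the study names for the ONH. The Mlana log2FC of 8.72 became 11.10 without replicate 7, and that of Tyrp1, 7.38, became 9.37 without replicate 1. Sox10, which also marks oligodendrocytes, was 2.93-fold lower in the ONH (adjusted p = 1.18e-05). Other genes among the largest folds were at the floor in the ONP, so that no fold is given. Tspan10 (a tetraspanin of pigment cells), Pnliprp2 (a lipase), Wt1 (a transcription factor) and Gsta1 (a glutathione transferase) had medians of 9.59, 4.73, 2.8 and 2.46 CPM in the ONH and at most 3 counts in any ONP library. Pnliprp1, a pancreatic lipase relative, had 2.32 to 5.26 CPM (median 3.8) in the ONH and no count in the 7 ONP libraries, at least 22.6-fold higher when set against a floor of 3 counts per library.

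Genes known from other retinal cells gave mixed results. Rlbp1, the retinaldehyde carrier of Mueller glia and pigment epithelium, ran at 196 to 398 CPM (median 309) in the ONH and 73.4 to 112 CPM (median 80.0) in the ONP, 3.54-fold higher (adjusted p = 1.49e-05). Of 9 Mueller glia markers 6 were higher and 1, Aqp4, lower, with a median log2FC of 0.69. Crym, a thyroid hormone binding protein, was 25.7-fold higher (adjusted p = 1.43e-04) and Dkk3, a secreted dickkopf relative, was 2.22-fold higher (adjusted p = 1.27e-04). Of 13 genes for retinal ganglion cells and their axons 10 were tested, and 3 were higher and 3 lower (5 higher without replicate 7). The 3 higher ones were the neurofilament genes, with Nefl at 9.45 to 45.6 CPM (median 25.2) against 1.36 to 6.51 CPM (median 2.53), Nefm at 2.7 to 9.23 CPM (median 4.83) against 0.391 to 1.55 CPM (median 0.679) and Nefh at 5.29 to 35.5 CPM (median 22.1) against 0.0487 to 0.759 CPM (median 0.391). All were separate between regions. Lower were Tubb3 (2.29-fold), Gap43 (1.88-fold) and Sncg (2.16-fold), and the membrane protein gene Thy1, usual for ganglion cells, gave no call (0.378 to 8.76 CPM (median 2.04) against 0.195 to 5.35 CPM (median 1.79), adjusted p = 0.601). Of 5 tested markers of other retinal neurons 2 were higher and 2 lower, and their summed level was lower in the ONH in 6 of 7 pairs. Trpm1 was 11.1-fold higher (adjusted p = 3.37e-05) and the glycine transporter gene Slc6a9 5.47-fold lower (adjusted p = 1.13e-04).

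Genes of myelin and of the oligodendrocyte lineage were lower in the ONH. Of 14 oligodendrocyte genes 13 were lower and none higher, with a median log2FC of -1.01, and all 8 precursor genes were lower, with a median of -1.60. Mbp, which encodes a main protein of central myelin, was at 6093 to 20886 CPM (median 8797) in the ONH and at 11125 to 40056 CPM (median 24690.5) in the ONP, 2.02-fold lower (adjusted p = 2.34e-04). Its ranges overlapped although every pair was lower. Ugt8a, the enzyme of galactocerebroside synthesis, was 4.06-fold lower without overlap (adjusted p = 6.07e-05), and Gal3st1, which makes sulfatide from that lipid, was 3.82-fold lower (adjusted p = 3.17e-06). Precursor genes differed more. Gpr17, a receptor of differentiating precursors, ran at 11.1 to 41.5 CPM (median 17.6) in the ONH and 137 to 207 CPM (median 161) in the ONP, 9.4-fold lower (adjusted p = 5.21e-06). Neu4 (a sialidase) and Lhfpl3 were 5.94-fold and 4.02-fold lower, and the precursor receptor gene Pdgfra was 2.29-fold lower (adjusted p = 8.14e-04).

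Immune, vessel and mesenchymal markers moved less uniformly. Among 14 microglial genes 4 were lower (28.6%, against 22.3% of all genes) and none higher (median log2FC -0.05), and 1 was lower without the replicate block. P2ry12, the purinergic receptor of resting microglia, was 3.73-fold lower in the ONH without overlap (2.94 to 12.9 CPM (median 6.56) against 13.7 to 92.3 CPM (median 17.7), adjusted p = 1.28e-04), while Csf1r (1.9-fold lower, adjusted p = 0.00582) lost its call without the replicate block (adjusted p = 0.189). Endothelial genes were higher for 7 of 11 (median 1.03), for 4 without the replicate block or without replicate 6, and for 1 without pairs 4, 5 and 7. Emcn and Egfl7, both of endothelium, were 4.17-fold and 3.11-fold higher (adjusted p = 0.00124 and 0.00188). Of 9 mural cell genes 3 were higher and 1 lower, with smooth muscle actin Acta2 4.44-fold higher (adjusted p = 6.59e-05) and the pericyte receptor gene Pdgfrb 2.26-fold lower (adjusted p = 3.59e-04). Of 12 fibroblast genes 3 were higher and 2 lower, led by Col1a2 at 282 to 606 CPM (median 442) in the ONH against 40.5 to 149 CPM (median 60.3) in the ONP (adjusted p = 3.80e-05). Of 6 tested Schwann cell genes 3 were higher and 1 lower. No surface epithelium, pituitary, skeletal muscle or red blood cell gene was called, with 4, 3, 2 and 5 genes tested. The globin genes Hba-a1 and Hba-a2, near-identical copies that can share reads, had log2FC of 1.09 ± 0.55 (adjusted p = 0.125) and 0.98 ± 0.57 (adjusted p = 0.184).

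At the other end were genes with far lower levels in the ONH. Ccdc3, which encodes a secreted coiled-coil protein (chr2:5137776-5230878, plus strand), ran at 0.27 to 4.72 CPM (median 1.9) in the ONH and 43.5 to 100.2 CPM (median 62) in the ONP, 37.2-fold lower in the ONH (log2FC -5.22 ± 0.34, adjusted p = 2.25e-06). Igsf1, a membrane protein of the immunoglobulin superfamily, ran at 0 to 2.61 CPM (median 0.481) and 12 to 46.3 CPM (median 31) (45.9-fold, adjusted p = 2.39e-04), and Bbox1, the last enzyme of carnitine synthesis, at 0 to 2.01 CPM (median 0.162) and 4.87 to 20.9 CPM (median 12.4) (log2FC -5.58 ± 0.79, -6.40 without replicate 3). The ranges of all 3 were separate. Alox8 (a lipoxygenase), Lrrc55 (an accessory subunit of calcium-activated potassium channels), Apobec2 (a deaminase relative), Disp3 (a dispatched relative) and Adcy8 (a calcium-stimulated adenylyl cyclase) were 46-fold, 24.6-fold, 19.2-fold, 15.9-fold and 15.4-fold lower, each without overlap. Hpse2 (a heparanase relative), Mybpc1 (a myosin-binding protein) and Atp13a4 (a transport ATPase) also belonged to the 12 largest decreases, at medians of 1.94, 1.95 and 3.31 CPM in the ONP and at most 0.761 CPM in any ONH library. Their log2FC rested on few ONH counts, and single pairs moved them. Without replicate 1 those of Hpse2 and Mybpc1 went from -5.14 to -6.22 and from -5.12 to -6.40. Without replicate 7 that of Hpse2 was -5.87, and that of Atp13a4, -4.07, was -4.69 without replicate 5 and -4.75 without replicate 7. The smallest p values among decreases went to Cdo1, which makes cysteine sulfinate (4.26-fold, adjusted p = 2.47e-06), to the kainate receptor partner Neto2 (5.54-fold, adjusted p = 2.47e-06), to Prkag2, a subunit of the AMP-activated kinase (4.3-fold, adjusted p = 2.61e-06), and to the ganglioside enzyme St8sia5 (4.72-fold, adjusted p = 3.60e-06).

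Few genes were present in 1 region at 1 CPM or more and at or under 3 counts in every library of the other. There were 23 such genes on the ONH side, 2 of them predicted, and 6 on the ONP side, 3 of them predicted. On the ONP side Fezf1, a forebrain transcription factor, was at 0.12 to 2.79 CPM (median 1.79) and had no count in any ONH library, at least 8.78-fold lower in the ONH by the floor. Exosc6, an exosome subunit, was at 0 in all ONP libraries but ran at 0 to 32.4 CPM (median 6.74) in the ONH, so that it was also 0 in some ONH libraries. Myh4, a myosin of fast muscle, came from few libraries, with a median of 0 and a maximum of 7.91 CPM in the ONP.

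Transcription factors that pattern the forebrain and eye stalk were more often higher than lower in the ONH. Ranges were separate for 13 factors above and 2 below. The summed level of the list was higher in the ONH in 3 of 7 pairs (median 865 against 876 CPM). Of 33 factors tested, 20 were higher and 5 lower in the ONH, the log2FC being 0.97 at the median and 0.16 to 1.70 between the quartiles (2 lower without pairs 4, 5 and 7). Pax2, the optic stalk factor that persists in optic nerve astrocytes, ran at 2.48 to 4.4 CPM (median 2.76) in the ONH and 0.323 to 1.18 CPM (median 0.999) in the ONP, 3.38-fold higher (adjusted p = 0.00123). Pax6, the factor of the optic cup, was 1.96-fold higher (17.4 to 31.3 CPM (median 19.5) against 9.1 to 14.4 CPM (median 11.8), adjusted p = 5.04e-04). Both were separate between regions. Otx1 was 4.85-fold, Nr2f1 2.98-fold, Nr2f2 2.45-fold and Six6 2.64-fold higher, each a factor of eye or forebrain regions and each without overlap. Lower in the ONH were Sox21 (0.251 to 1.96 CPM (median 1.07) against 2.49 to 12.9 CPM (median 9.59), 7.42-fold, adjusted p = 2.03e-04) and Nkx2-2, a factor of the oligodendrocyte lineage (2.86-fold, adjusted p = 0.00479), both separate. Id4, an inhibitor of helix-loop-helix factors, was 2.08-fold lower with overlap (adjusted p = 0.0128).

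Among extracellular matrix classes, collagens were more often higher in the ONH, while the counts of matrix glycoproteins and of proteases lay near the background. Of 32 collagen genes 20 were higher and 2 lower, with a median log2FC of 0.99. Col8a1, a short-chain collagen of vessels and cornea, ran at 55.5 to 117 CPM (median 78.9) in the ONH and 10.8 to 18.2 CPM (median 12.8) in the ONP, 5.87-fold higher (adjusted p = 2.47e-06). Col9a1, best known from cartilage and vitreous, was 5.29-fold higher (25.4 to 50.5 CPM (median 34.1) against 5.12 to 9.49 CPM (median 6.51), adjusted p = 2.47e-06). Col5a1 and Col18a1, of fibrils and of basement membranes, were 3.15-fold and 3.45-fold higher, and Col16a1 was 1.54-fold lower (adjusted p = 0.00591). The 2 chains of type I collagen parted: Col1a2 was 5.95-fold higher, while Col1a1 was 1.7-fold lower (7.98 to 47.3 CPM (median 16.9) against 13.6 to 86.7 CPM (median 21.7), adjusted p = 0.0182), a call lost without the replicate block (adjusted p = 0.214).

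Among 57 laminins, proteoglycans and matrix glycoproteins 17 were higher and 13 lower (median 0.10). Next to Sparc, the elastic fibre protein Fbln5 was 7.0-fold higher (54.6 to 168 CPM (median 69.9) against 9.99 to 17.9 CPM (median 11.4), adjusted p = 3.17e-06), and Ecm1 and the basement membrane laminin Lama5 were 5.24-fold and 4.9-fold higher. Lower were chondroitin sulfate proteoglycan genes of the brain matrix, Bcan at 130.4 to 267 CPM (median 178) in the ONH and 337 to 688 CPM (median 568) in the ONP (2.86-fold lower, adjusted p = 1.87e-05) and Ncan 2.69-fold lower (adjusted p = 3.95e-05). Both were separate between regions. Sparcl1, the relative of Sparc that astrocytes secrete at synapses, went the other way from Sparc, 3.08-fold lower (423 to 977 CPM (median 552) against 908 to 2999 CPM (median 2222), adjusted p = 2.06e-05). Proteases and their inhibitors gave 12 higher and 11 lower of 39 (median -0.14). The crosslinking enzyme Loxl2 was 3.13-fold higher (adjusted p = 3.80e-05) and the metalloproteinase inhibitors Timp1 and Timp3 were 3.8-fold and 1.63-fold higher (adjusted p = 1.44e-04 and 1.96e-04). The protease inhibitor Serpine2 was 2.8-fold lower without overlap (adjusted p = 1.23e-05), and the gelatinase Mmp2 was 2.4-fold lower (adjusted p = 7.33e-04). Integrins, the receptors for matrix, were called for 3 of 22 genes, 2 higher and 1 lower, with the laminin receptor chain Itga3 1.74-fold higher (adjusted p = 0.00185).

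Genes of filaments, cell junctions and adhesion parted within each class. Of 27 filament and junction genes 10 were higher and 10 lower (median -0.34). Higher were Lmna, the lamin of the nuclear envelope (1.66-fold, adjusted p = 5.56e-04), and Cldn3, a claudin of tight junctions (6.12 to 18.2 CPM (median 8.07) against 0.195 to 2.84 CPM (median 0.60), 12.2-fold, adjusted p = 1.53e-04). Lower were the tight junction gene Ocln (3.91-fold, adjusted p = 2.28e-04) and the oligodendrocyte connexin Gjb1 (2.12-fold, adjusted p = 5.03e-04). Of 30 cadherins 7 were higher and 10 lower (median -0.15), and the higher count fell to between 2 and 4 when any 1 of replicates 1, 3, 5, 6 and 7 was left out. Celsr2, an atypical cadherin of planar cell polarity, ran at 64.6 to 111 CPM (median 99) in the ONH and 10.6 to 22.3 CPM (median 15.6) in the ONP, 5.56-fold higher (adjusted p = 2.66e-06). Cdh13 was 3.05-fold higher, Cdh20 and Pcdh11x were 2.64-fold and 3.69-fold lower, and Cdh2 (N-cadherin) was not called (adjusted p = 0.0966).

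Axon guidance genes showed 23 higher and 20 lower of 66 (median 0.13). Slit2, a repellent of Robo-bearing axons, ran at 37.8 to 95.6 CPM (median 70.3) in the ONH and 11.3 to 18.8 CPM (median 15.9) in the ONP, 4.22-fold higher (adjusted p = 2.47e-06). The adhesion molecule Chl1 was 3.69-fold, the ephrin receptor Ephb2 5.89-fold and the ligand Efna5 4.98-fold higher, all without overlap. Lower were Sema3d, a secreted semaphorin, at 4.29 to 9.69 CPM (median 5.79) in the ONH and 17.3 to 26.9 CPM (median 19.1) in the ONP (3.16-fold lower, adjusted p = 2.39e-05), the membrane semaphorin Sema4d (2.41-fold) and the semaphorin receptor Nrp2 (2.0-fold). Ephb1 was 2.58-fold lower (adjusted p = 4.96e-05), opposite to Ephb2.

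Wnt pathway genes were more often higher in the ONH, 24 against 7 lower of 45, with a median log2FC of 0.61. Among ligands, Wnt8b was 6.9-fold higher (12.3 to 26 CPM (median 16) against 1.48 to 4.14 CPM (median 2.1), adjusted p = 1.32e-05) and Wnt11 was 4.41-fold lower (adjusted p = 0.00141). Among receptors, Fzd1 ran at 66.1 to 141 CPM (median 93.8) in the ONH and 19.2 to 29.8 CPM (median 25.9) in the ONP, 3.86-fold higher (adjusted p = 2.25e-06), while Fzd9 ran at 26.3 to 45 CPM (median 30.7) and 83.1 to 202 CPM (median 120.2), 3.91-fold lower (adjusted p = 1.03e-05). Both receptors were separate between regions, in opposite directions. Among secreted inhibitors, Wif1 was at 42.1 to 75.6 CPM (median 47.3) against 3.16 to 13.2 CPM (median 10.2) (7.27-fold, adjusted p = 4.19e-06), and Sfrp1 and Frzb were 3.16-fold and 2.5-fold higher. The agonist Rspo1 was 15-fold lower (0.10 to 1.21 CPM (median 0.641) against 5.9 to 16.4 CPM (median 7.47)), and Rnf43, the ligase that removes Wnt receptors and on which R-spondins act, was 2.74-fold lower (adjusted p = 0.00207).

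Of 41 genes of the BMP and TGF-beta pathway 13 were higher and 8 lower (median -0.03, and 5 lower without pairs 4, 5 and 7). The ligand Tgfb2, the main form of TGF-beta in the eye, ran at 518 to 941 CPM (median 767) in the ONH and 132 to 357 CPM (median 276) in the ONP, 2.93-fold higher (adjusted p = 5.54e-06). Ltbp1, which tethers latent TGF-beta to matrix, ran at 94 to 165 CPM (median 109.8) and 17.7 to 32.1 CPM (median 23.1), 5.41-fold higher (adjusted p = 2.60e-07). Gdf10, a secreted BMP relative, was 9.46-fold higher (215 to 416 CPM (median 249) against 14.4 to 46 CPM (median 32.7), adjusted p = 2.69e-07), and the BMP-binding protein Fstl1 was 3.05-fold higher. None of these 4 overlapped. The receptor genes Tgfbr2 and Bmpr1b were 1.88-fold and 1.81-fold lower (adjusted p = 2.51e-04 and 6.72e-04), as were the ligand Bmp4 (2.28-fold, adjusted p = 5.12e-04) and the BMP target Id2 (1.99-fold, adjusted p = 6.57e-04).

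FGF genes gave 7 higher and 6 lower of 26, near the 22.1% and 22.3% of all genes (median 0.14, and 4 higher without pairs 4, 5 and 7). The decoy receptor Fgfrl1 was 2.06-fold higher (adjusted p = 1.17e-04) and the ligand Fgf9 4.76-fold higher at 0.543 to 3.11 CPM (median 1.29) against 0.104 to 0.656 CPM (median 0.30), whereas Fgfr2 (1.64-fold, adjusted p = 6.85e-04) and the ligand Fgf1 (1.75-fold, adjusted p = 0.00382) were lower. Notch and Hedgehog genes gave 7 higher and 7 lower of 32, also at the background (median -0.10, and 4 lower without replicate 4). The Hedgehog receptor and target Ptch1 was 2.68-fold higher (37.4 to 78.7 CPM (median 63) against 17.7 to 27.9 CPM (median 22.7), adjusted p = 8.49e-06), the ligand Dhh 2.25-fold higher (adjusted p = 3.67e-05) and the co-receptor Cdon 5.72-fold higher (adjusted p = 1.34e-04), while the Hedgehog-binding inhibitor Hhip was 2.0-fold lower (adjusted p = 0.0066). Among Notch ligands, Dner was at 5.37 to 11.9 CPM (median 7.77) against 25.6 to 48.9 CPM (median 36.6) (4.68-fold, adjusted p = 1.37e-05) and Dll3 9.8-fold lower (adjusted p = 3.72e-05). Notch1 was not called (adjusted p = 0.439) and Notch2 was 1.52-fold higher (adjusted p = 0.00958).

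Retinoid genes gave 7 higher and 2 lower of 18 (median 0.35). The retinoic acid receptor Rarb, itself a retinoic acid target, was 2.24-fold higher (adjusted p = 3.08e-04), and Rxrg was 1.95-fold lower (adjusted p = 2.98e-04). Aldh1a1, which makes retinoic acid, was not called (965 to 1534 CPM (median 1294) in the ONH against 1034 to 1881 CPM (median 1614) in the ONP, adjusted p = 0.113).

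The neuropeptide list, with Cartpt and Scg2 counted in it, gave 6 higher and 4 lower of 18 tested, with a median of 0.06 (2 lower without replicate 2 or 7). Pam, the enzyme that amidates peptides, ran at 72.1 to 153 CPM (median 140.4) in the ONH and 33.8 to 57.3 CPM (median 49.6) in the ONP, 2.68-fold higher (adjusted p = 2.66e-05), and Pcsk1n, an inhibitor of prohormone convertase, was 2.66-fold higher (adjusted p = 1.69e-04). Lower were Cck (cholecystokinin) at 3.13 to 10.9 CPM (median 6.28) against 10.7 to 30.3 CPM (median 25.3) (3.58-fold, adjusted p = 4.85e-04) and the convertase Pcsk2 (2.8-fold, adjusted p = 0.0044). Of 6 tested endothelin genes 2 were higher and 1 lower (median 0.32). Ednrb, the main endothelin receptor of astrocytes, ran at 855 to 1984 CPM (median 1149) and 429.8 to 1073 CPM (median 658), 1.95-fold higher in 7 of 7 pairs (adjusted p = 2.73e-04). The ligand Edn3 was 2.83-fold higher (adjusted p = 0.0107), the endothelin-converting enzyme Ece1 2.07-fold lower (adjusted p = 0.00945), and Edn1 was not called (adjusted p = 0.221).

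Ion and transmitter handling genes were more often lower in the ONH. Of 48 genes for glutamate, GABA and glycine 26 were lower and 4 higher, with a median log2FC of -1.06, the lowest of the 35 gene lists, and 15 were separate (2 higher without the replicate block). The summed level of this list was nevertheless higher in the ONH in 6 of 7 pairs (median 4355 against 4325 CPM). Gpt2, a glutamate-forming transaminase, ran at 54.9 to 98.3 CPM (median 76.6) in the ONH and 174 to 238 CPM (median 217) in the ONP, 2.88-fold lower (adjusted p = 5.76e-06). Grm3, the metabotropic receptor of adult astrocytes, ran at 10.2 to 25.4 CPM (median 11.4) and 45 to 106 CPM (median 73.9), 4.73-fold lower (adjusted p = 1.37e-05). The 4 higher genes included subunits of ligand-gated channels: Gria1, an AMPA receptor subunit, was at 456 to 983 CPM (median 629) against 122 to 287 CPM (median 215) (3.29-fold, adjusted p = 1.98e-06), and Gabrg3, a GABA receptor subunit, at 106 to 179.7 CPM (median 147) against 8.76 to 29.3 CPM (median 23.5) (7.07-fold, adjusted p = 3.17e-06). All 4 genes with values here were separate between regions. Glul (glutamine synthetase) was 1.39-fold higher (adjusted p = 0.00783) but not without the replicate block (adjusted p = 0.116).

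Of 45 genes for potassium channels and the sodium pump 16 were lower and 6 higher (median -0.37). Kcnj10, the potassium channel Kir4.1 by which astrocytes buffer potassium, was 1.61-fold higher in the ONH (181 to 350.1 CPM (median 272) against 134 to 234 CPM (median 149), adjusted p = 0.00111), whereas Kcnj16, whose product pairs with it, was 3.66-fold lower (9.39 to 27.4 CPM (median 10.9) against 25.3 to 83.5 CPM (median 55.4), adjusted p = 4.61e-05). The leak channel Kcnk1, the channel partner Kcnip3 and the G protein-gated channel Kcnj3 were 3.25-fold, 3.97-fold and 9.44-fold lower. Of 37 genes for water, bicarbonate and chloride 13 were lower and 6 higher (median -0.22, and 3 higher without pairs 4, 5 and 7). Hepacam, the adhesion partner that places chloride channels and connexins in astrocytes, ran at 119 to 199 CPM (median 151) and 306 to 432 CPM (median 378), 2.37-fold lower (adjusted p = 3.05e-05), and Car2 (carbonic anhydrase) was 2.04-fold lower (adjusted p = 5.93e-04). Slc4a5 and Slc4a11, of the bicarbonate carrier family, were 22.2-fold and 7.62-fold higher at low levels, with medians of 3.11 and 8.96 CPM in the ONH. Of 19 mechanosensitive and TRP channels 3 were higher and 4 lower (median -0.05). Trpm3 ran at 39.3 to 86.2 CPM (median 75) in the ONH and 3.75 to 11.8 CPM (median 6.52) in the ONP, 10.4-fold higher (adjusted p = 2.94e-07), and the stretch- and osmolarity-gated channels Tmem63a and Tmem63b were 2.6-fold and 1.8-fold lower (adjusted p = 3.42e-05 and 3.18e-04). Piezo1 (0.54 ± 0.62, adjusted p = 0.509) and Piezo2 (-0.10 ± 0.26, adjusted p = 0.781), the canonical stretch channels, were low and not called on the log2FC scale.

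Energy genes moved by class. Of 77 nuclear genes of oxidative phosphorylation 56 were higher and 3 lower (median log2FC 0.62), and of 13 mitochondrially encoded ones 9 were higher and none lower (median 0.96). Without pairs 4, 5 and 7 the nuclear count of higher genes was 11, while the count of higher genes over all genes fell from 3340 to 1719. Cox4i1, a subunit of complex IV, was at 568 to 1383 CPM (median 700.2) in the ONH and 325 to 475 CPM (median 395) in the ONP (1.95-fold, adjusted p = 2.07e-04), and mt-Nd1, of complex I, at 345 to 842 CPM (median 535) and 83.1 to 281 CPM (median 195) (2.73-fold, adjusted p = 4.46e-04). The 3 lower genes were large catalytic or core subunits. Atp5b was 1.38-fold lower (adjusted p = 0.00281), Uqcrc2 1.33-fold lower (adjusted p = 0.00633) and Sdha 1.39-fold lower (adjusted p = 0.00235). Cytosolic ribosomal protein genes were higher for 73 of 76 with none lower, at a narrow spread of log2FC (interquartile range 0.60 to 0.95, median 0.76), for example Rpl18 (1.65-fold, adjusted p = 1.68e-04) and Rpl10a (1.82-fold, adjusted p = 2.17e-04). Without pairs 4, 5 and 7 the count was 31, to be read against the same fall over all genes. Reads of ribosomal protein genes can be shared with their many pseudogenes, and Rpl22, which carries the tag, is itself of this class.

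Glycolysis genes gave 8 higher and 10 lower of 31 (median -0.14). Hk2, the inducible hexokinase, ran at 43.3 to 80.2 CPM (median 50.2) in the ONH and 9.0 to 26.1 CPM (median 12.5) in the ONP, 3.86-fold higher (adjusted p = 1.13e-04), while Hk1 was 1.87-fold lower (adjusted p = 0.0103). Ldha (lactate dehydrogenase), Tpi1 and Pgk1 were 1.8-fold, 1.76-fold and 1.57-fold higher. Lower were the glucose transporter Slc2a1 (1.52-fold, adjusted p = 7.21e-04) and the kinases Pdk2 and Pdk4, which shut pyruvate out of the mitochondrion (1.93-fold and 3.2-fold). Of 19 hypoxia targets 11 were higher and 2 lower (median 0.47). Apart from Mgarp these included Adm (adrenomedullin), at 20.2 to 45.7 CPM (median 25.2) against 3.93 to 8.93 CPM (median 7.26) (4.11-fold, adjusted p = 1.99e-05), Ndrg1 (2.4-fold, adjusted p = 5.15e-05), the collagen hydroxylase P4ha2 (1.94-fold) and Vegfa, the endothelial growth factor (1.91-fold, adjusted p = 0.00155). The 2 lower ones were Slc2a1 and Hif1a, the oxygen-regulated factor itself, 1.46-fold lower (adjusted p = 0.00949) with the call lost without the replicate block (adjusted p = 0.0629).

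Cholesterol synthesis genes were lower in the ONH as a class. Of 25 tested 19 were lower and none higher, with a median log2FC of -0.85, and 14 were separate between regions. Sqle (squalene epoxidase) ran at 63.4 to 100.5 CPM (median 79.3) in the ONH and 129.8 to 242 CPM (median 219) in the ONP, 2.65-fold lower (adjusted p = 9.17e-06). Hmgcs1, which makes HMG-CoA, ran at 278 to 445 CPM (median 377) and 551 to 1060.4 CPM (median 888) (2.36-fold, adjusted p = 3.70e-05). Neither overlapped. Of 32 genes for fatty acid synthesis and lipid carriage 17 were lower and 6 higher (median -0.47). The citrate lyase Acly and the elongase Elovl7 were 2.33-fold and 2.65-fold lower. The exporters parted, with Abcg1 2.68-fold lower (adjusted p = 5.00e-05) and Abca1 1.78-fold higher (adjusted p = 6.11e-04), and the lipoprotein receptor Lrp1 was 2.32-fold higher (199.9 to 388 CPM (median 271) against 103 to 145 CPM (median 110.3), adjusted p = 3.42e-05). The lipid droplet protein Plin2 was 2.24-fold higher (adjusted p = 7.10e-05). Oligodendrocyte marker sums moved in the same direction as the cholesterol genes, and their part in this difference was not tested.

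Genes known for reactive astrocytes moved in both directions, 17 higher and 10 lower of 37 (median 0.54). Cp (ceruloplasmin, the iron oxidase) ran at 216 to 531 CPM (median 310.3) in the ONH and 81.7 to 143 CPM (median 111) in the ONP, 3.02-fold higher (adjusted p = 2.47e-06), and the small heat shock protein Hspb1 at 215 to 431 CPM (median 299) and 89.6 to 167 CPM (median 120.0), 2.6-fold higher (adjusted p = 1.10e-05). Aspg, Srgn and C3 were lower, with C3, the central complement factor, at 75.7 to 132 CPM (median 103) in the ONH and 152 to 290.0 CPM (median 203) in the ONP (2.05-fold, adjusted p = 1.24e-04). These 3, like Cp and Hspb1, were separate between regions. Lcn2 was not called (1.04 to 5.48 CPM (median 1.99) against 0.514 to 2.16 CPM (median 1.62), adjusted p = 0.221). Complement genes gave 3 higher and 5 lower of 19, near the background shares of 22.1% and 22.3% (median -0.15, and 3 lower without replicate 2 or without the replicate block). C2 was 3.8-fold higher (22.2 to 47 CPM (median 33.8) against 5.69 to 12.2 CPM (median 9.09), adjusted p = 1.23e-05) and Masp1, a protease of the lectin branch, 3.57-fold lower (adjusted p = 8.03e-04). C1qa, made by microglia, was not called (adjusted p = 0.21), and its level was highest in replicate 7 of the ONH at 724 CPM.

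Interferon and MHC class I genes were higher for 24 of 37 and lower for 1, with a median log2FC of 0.83. All ONH libraries lay above all ONP libraries for only 2 of the 37. Ifi35 ran at 56.1 to 118 CPM (median 73.7) in the ONH and 13.3 to 36.3 CPM (median 19.3) in the ONP, 3.52-fold higher (adjusted p = 4.40e-05), and Ifitm3, which blocks virus entry, at 451 to 831 CPM (median 518) and 187 to 354 CPM (median 264), 2.16-fold higher (adjusted p = 2.28e-04). Stat2, a factor of the interferon response, was 1.59-fold lower (adjusted p = 0.0124). The MHC gene H2-K1 was 1.92-fold higher (adjusted p = 2.85e-04) with overlapping ranges. Of 19 phagocytic receptors and ligands 5 were higher and 1 lower (median 0.12). Pros1, a bridging ligand for phagocytosis, ran at 537 to 1431 CPM (median 684) and 159.5 to 382 CPM (median 229), 3.71-fold higher (adjusted p = 6.03e-06), the receptor Tyro3 was 1.85-fold lower (adjusted p = 0.0013), and Megf10 (adjusted p = 0.375) and Mertk (adjusted p = 0.309) were not called.

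Immediate early genes gave 8 higher and 4 lower of 25 (median 0.21, and 4 higher without pairs 4, 5 and 7). Ier3 and Ier2 were 3.53-fold and 2.25-fold higher, Arc and Myc were 2.65-fold and 3.53-fold lower, and Fos was not called (57.8 to 99.9 CPM (median 66.9) against 47 to 81.3 CPM (median 63.7), adjusted p = 0.607). Antioxidant genes gave 16 higher and 9 lower of 35 (median 0.12), and 7 higher and 5 lower without pairs 4, 5 and 7. Gpx1 and Gpx8, which are peroxidases, were 2.65-fold and 2.46-fold higher without overlap, and the ferritin gene Ftl1 was 1.91-fold higher, although its many copies can share reads. The glutathione synthesis subunits Gclm and Gclc and the catalase gene Cat were 2.15-fold, 1.78-fold and 1.5-fold lower. Cell cycle genes gave 4 higher and 8 lower of 30 (median -0.57, and 5 lower without replicate 4 or 7). The higher ones were the 3 D-type cyclins and the inhibitor Cdkn1a (1.83-fold), with Ccnd2 at 498 to 1131 CPM (median 860.1) in the ONH and 157 to 322 CPM (median 254) in the ONP (3.42-fold, adjusted p = 6.03e-06) and Ccnd1 at 492 to 838 CPM (median 572) and 149 to 308 CPM (median 199) (3.15-fold, adjusted p = 3.20e-05). The lower ones included replication licensing genes, Mcm4 2.16-fold (adjusted p = 6.86e-04) and Mcm5 2.3-fold (adjusted p = 6.75e-04). The proliferation marker Mki67 was low and not called (0.10 to 4.63 CPM (median 1.17) against 0.30 to 3.16 CPM (median 1.8), adjusted p = 0.602).

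Of 32 tested genes linked to glaucoma by human genetics 14 were higher and 4 lower in the ONH (median 0.36), with 9 higher without pairs 4, 5 and 7 and 2 lower without replicate 1, 4 or 6. Cdkn2b, a cell cycle inhibitor at a risk locus, ran at 62.9 to 124 CPM (median 68.9) in the ONH and 20.4 to 32.2 CPM (median 25.9) in the ONP, 2.94-fold higher (adjusted p = 3.17e-06). Thbs1, a matrix thrombospondin, was 8.37-fold higher at 5.45 to 17.8 CPM (median 7.64) against 0.167 to 3.12 CPM (median 1.08) (adjusted p = 4.35e-04). Both were separate, as was Six6. Myoc (myocilin) was lower in the ONH, at 0.359 to 4.61 CPM (median 1.12) against 3.8 to 32.5 CPM (median 18.7) with overlap (13.3-fold, adjusted p = 7.87e-04), as was the kinase Tbk1 (1.77-fold, adjusted p = 0.0147). Optn, an autophagy receptor, was not called (adjusted p = 0.076).

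**Figure D4:**
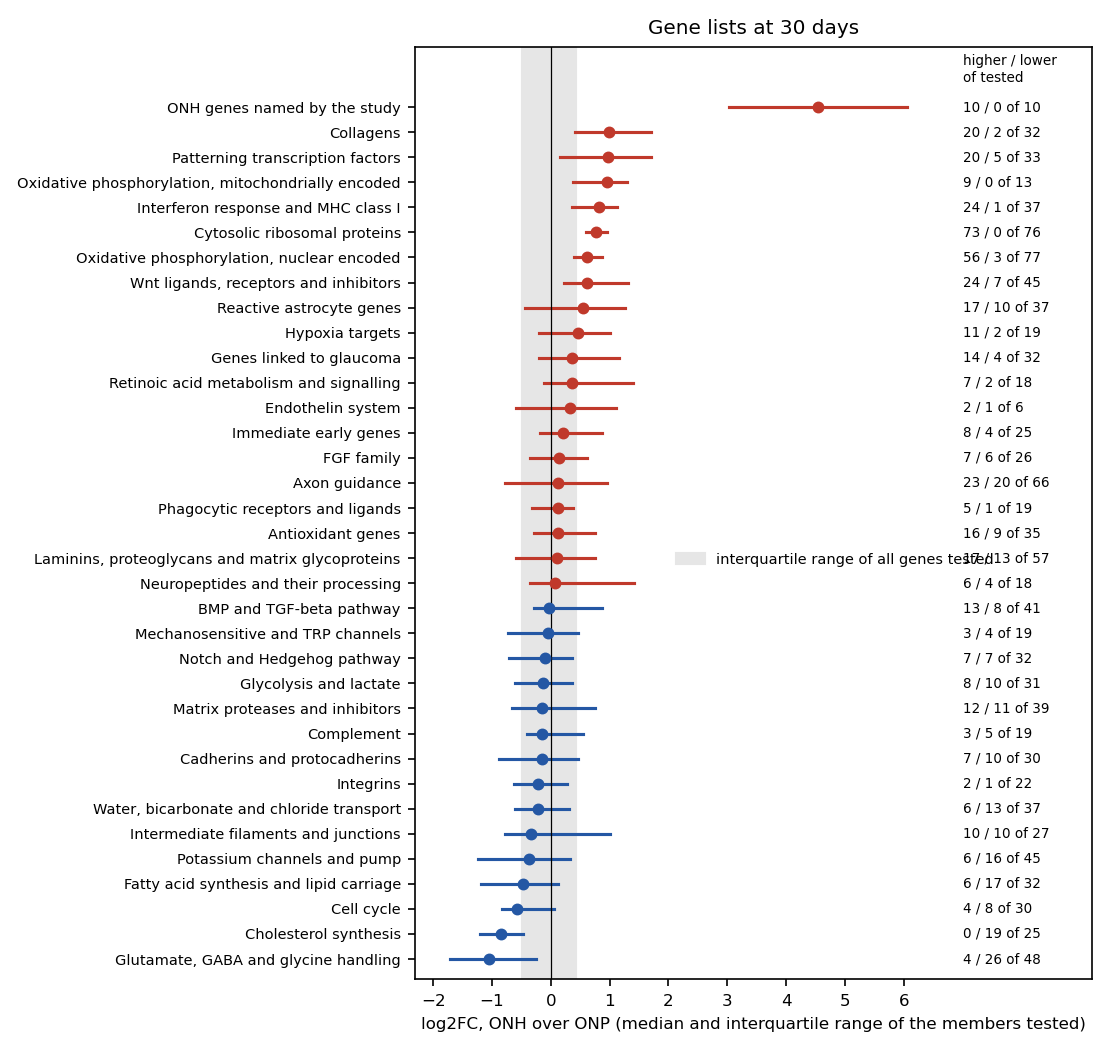
Median log2FC of ONH over ONP (points) and interquartile range (bars) of the members tested in each of 35 gene lists, with the number called higher and lower printed at the right and the interquartile range of all 15133 genes shaded. Collagens, patterning factors, ribosomal proteins and both oxidative phosphorylation lists lie to the right of 0, and glutamate and GABA handling and cholesterol synthesis lie to the left.

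The regional difference at 30 days was set against that of the 8 libraries at 7 days. In a fit over all 22 libraries, 6016 of the 6717 genes called at 30 days had the same sign at 7 days (89.6%), and for genes over 2-fold the share was 91.5%. Genes higher in the ONH at 30 days had a median log2FC of 0.78 at 30 days and 0.60 at 7 days, and the lower ones -0.78 and -0.60. Choosing genes by their call at 30 days favours larger values there, and fewer libraries and other pools of mice stand behind the 7-day values. Tested directly, the difference between the 2 days passed the threshold for 91 of 16748 genes (0.543%), and 2103 genes had an unadjusted p under 0.05. Of the 91, 63 were also called at 30 days, 36 of them higher in the ONH and 27 lower. Without 1 library at a time the count of 91 ran from 22 (without ONP library 1, 2 or 4 of day 7) to 318 (without ONH library 3 of day 7). Day 7 libraries are numbered here by the order of their columns within a region, not by column name or label.

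Unc13c and Rph3a, the vesicle genes, were wider apart at 30 days. Unc13c was at 750.5 ± 403 CPM (SD, n = 4) in the ONH and 202 ± 59.7 in the ONP at 7 days, a log2FC of 1.89 against 4.80 in the same fit at 30 days (difference 2.91 ± 0.44, adjusted p = 0.00423), and Rph3a at 98.8 ± 48.9 CPM (SD, n = 4) in the ONH and 18.4 ± 3.14 in the ONP, 2.42 against 5.18 (2.76 ± 0.42, adjusted p = 0.00469). Mgarp also widened, from 4.27 to 6.36 (2.08 ± 0.36, adjusted p = 0.0106), while for Cartpt the move from 6.74 to 8.84 did not pass (2.09 ± 0.66, adjusted p = 0.157) and was 1.29 without ONP library 1 of day 7 (adjusted p = 0.40). Among Wnt inhibitors, Frzb was at 25.2 ± 3.58 CPM (SD, n = 4) in the ONH and 28.1 ± 2.56 in the ONP at 7 days, a log2FC of -0.15 against 1.35 at 30 days (adjusted p = 0.00415), and Wif1 went from 0.25 to 2.75 (adjusted p = 0.0106). Kcnj10 turned, from -0.80 to 0.71 (adjusted p = 0.0186), a call lost without ONH library 1 of day 7 (adjusted p = 0.0524) or ONP library 1 (0.0582) or 2 (0.0619) of that day.

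On the ONP side Ccdc3 showed the largest of these shifts among genes named for it. It was at 7.45 ± 2.51 CPM (SD, n = 4) in the ONH and 12 ± 7.1 in the ONP at 7 days (log2FC -0.69), against -5.10 at 30 days (-4.41 ± 0.65, adjusted p = 0.00415). Cck was at 8.47 ± 6.43 CPM (SD, n = 4) in the ONH and 2.17 ± 0.592 in the ONP at 7 days and thus turned from 1.96 to -1.80 (-3.76 ± 0.60, adjusted p = 0.00567), or by -3.12 without ONH library 3 of day 7. Rgs7bp, an anchor for regulators of G protein signalling, was at 10.6 ± 3.41 CPM (SD, n = 4) in the ONH and 3.24 ± 1.07 in the ONP at 7 days and turned from 1.70 to -0.90 (-2.61 ± 0.37, adjusted p = 0.00415). Days 7 and 30 are different mice, and whether the shifts follow from time, from the pools or from the make-up of the libraries cannot be told apart.

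**Figure D5:**
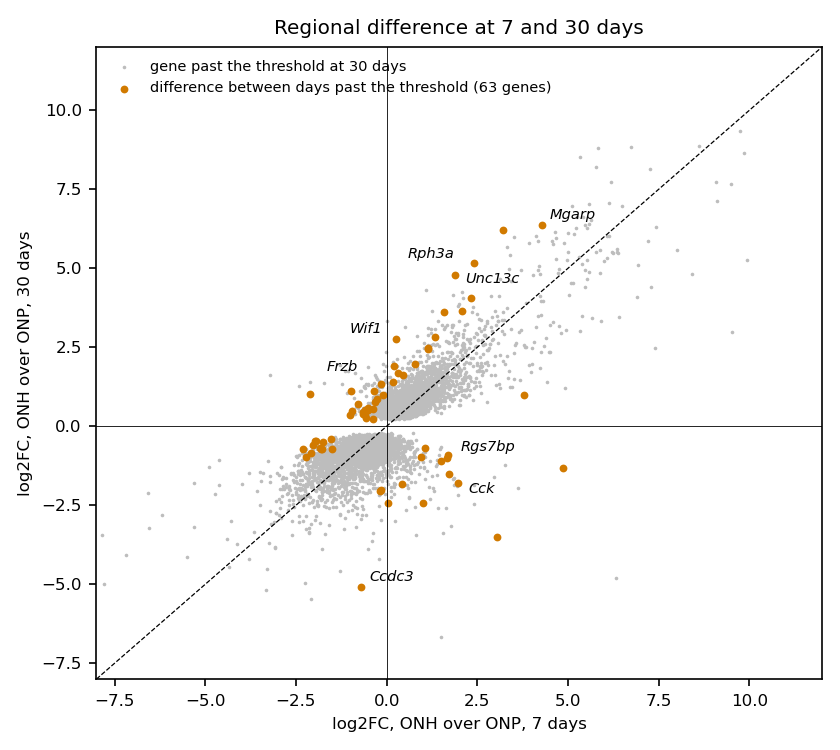
Log2FC of ONH over ONP at 30 days against that at 7 days for the 6717 genes called at 30 days (grey), with the 63 genes whose difference between the days passed the threshold in orange and a dashed line where both are equal. Mgarp, Unc13c, Rph3a, Wif1 and Frzb lie above the line, and Ccdc3, Rgs7bp and Cck lie below it.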

How the data were processed

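The authors isolated ribosome-bound RNA by RiboTag immunoprecipitation, selected poly(A) RNA, prepared unstranded libraries and sequenced paired reads of 150 bases. Per the labels and methods, reads were aligned to mm10 with STAR 2.6.1d and quantified with Salmon 0.14.2 on Ensembl 94, and the authors analysed them with DESeq2 1.34.0 in R 4.1.0. The deposited table holds estimated counts per gene as whole numbers (29367 genes), and without strand, reads of overlapping genes cannot be told apart. A second deposited table of log2-scale transformed values was not used.

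The 14 libraries of day 30 were fitted with edgeR 4.0.16 (R 4.3.3) by glmQLFit and glmQLFTest with TMM scaling, filterByExpr, the region and the replicate number as a block, and Benjamini-Hochberg adjustment over 15133 genes. By the methods both regions came from the same mice, but neither methods nor labels tie library numbers to pools. Deviations of same-numbered libraries from the region means correlated at 0.108 to 0.546 over genes, and 3 of 7 ONH libraries correlated best with their own number. The difference to day 7 was fitted over the 22 libraries in 4 groups without a block, since the day 7 column numbers match no replicate number of the labels (a block on the 3 numbers shared between regions was added after seeing the data), for 16748 genes. CPM values use TMM factors over all libraries. Library measures were compared by exact permutation over pairs. Fits were tested on simulated data. Alternatives were DESeq2 1.42.0, limma 3.58.1 with voom, other scalings and filters, leaving out replicates, the fit without the block and, chosen after seeing the data, leaving out pairs 4, 5 and 7.

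Named genes were the 12 largest log2FC each way among called genes with separate ranges and at least 1 CPM, the 6 smallest p each way, up to 4 members each way and the first 2 symbols of each of 18 cell type and 35 gene lists, the 6 genes with the highest mean CPM per region, the 6 smallest p for the difference to day 7, and the 6 highest genes at or under 3 counts in the other region. Of these the text names most, and a few are not reported here. The members, lists and rules were chosen with earlier results of these data known. A list is described by its counts and median, to be read against the shares and median of all genes, which are given once. No test compares a list with other genes. The floor of 3 counts covers counting error only, and PCR copies are not independent molecules. BCV was 29.5%.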

Additional observations from a re-analysis of the deposited data

Results flagged for a closer look

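A library was marked where the gap between the highest or lowest of 7 libraries and its neighbour took more of the whole range than Dixon's critical share for 7 values, on log2 of CPM plus 0.5. Chance marks about 1 group in 20, and 24 of 246 groups were marked. ONH replicate 4 stood high for the photoreceptor sum (2782 CPM against a median of 321 with the 0.5 added, share 0.586), for Prph2 (share 0.658) and for Nr2e3 (0.720). ONP replicate 5 stood low for the astrocyte sum (36006 against 61720, share 0.581) and for mt-Nd1 (0.619), and high for Prph2 (0.698), Sag (0.602), Sema3d (0.649) and Nr2e3, which only this library held (share 1). ONP replicate 7 stood low for the cholesterol gene Sqle (0.730), and high for Mlana (0.791), Grk1 (0.837) and the skeletal muscle sum (51.4 against 2.57, share 0.900). ONH replicate 7 stood high for the share of counts in the top 100 genes (31.3% against 28.3%, 0.745) and low for Pam (0.702). ONH replicate 3 stood high for Cldn3 (0.603) and Bbox1 (0.635), and ONH replicate 5 for the skeletal muscle sum (16.1 against 4.11, 0.569). ONH replicate 6 stood high for Bok (0.697) and Cox4i1 (0.572), and ONH replicate 1 for Fos (0.590). ONP replicate 6 stood low for Adm (0.608), ONP replicate 4 low for Pax2 (0.670) and ONP replicate 1 high for Rpe65 (0.746). What set these libraries apart was not tested.

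The regional difference at day 30 differed from that at day 7 for 91 genes by the interaction test of edgeR. Among genes named above, the log2 difference was 2.91 for Unc13c, 2.76 for Rph3a, 2.50 for Wif1, 2.08 for Mgarp, 1.52 for Kcnj10 and 1.51 for Frzb. It was -4.41 for Ccdc3, -3.76 for Cck and -2.61 for Rgs7bp.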

How the results depend on the processing

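All 238 called genes named above kept their direction under the alternatives at day 30, and 219 stayed past the threshold in each. Without the replicate block 232 stayed, with 3296 genes higher and 3026 lower, and the calls that changed are given beside the genes. Without pairs 4, 5 and 7, which leaves 4 pairs, 1719 genes were higher and 1906 lower. Of the 6717 genes called with all pairs, 3490 were called again in the same direction and 0 changed sign. Of the 238 named genes, which were picked in part for small p or large fold, 223 stayed. Those lost included Egfl7, Id4, Pcsk2, Col16a1, Fgf9, Notch2, Uqcrc2, Stat2, Gclc, Tbk1 and Edn3 (adjusted p 0.0581 to 0.227). Emcn was lost with all 4 groups in 1 fit without the block (adjusted p = 0.0597). Leaving out single pairs gave 2936 to 3295 higher and 2788 to 3194 lower genes, DESeq2 with the block 3748 and 4095. Of uncalled genes, 2 changed sign. The log2FC of Piezo2 ran from -0.31 to 0.039 without single pairs, above 0 without replicate 1, 2 or 5, and was 0.067 without pairs 4, 5 and 7, where that of Mki67 was 0.073. Counts of list members moved by over 1.5 times in 141 cases and not in 1767, mostly lists with few calls.

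The ONH held a mean of 113 more genes at 3 or more counts than the ONP, 197 more at 10 or more, but at 1 or more counts the difference was -277 genes, and none of these passed the exact permutation test. The 91 genes that differed from day 7 became 409 with DESeq2, 161 with limma-voom and the replicate block of day 30 pairs, 184 with a block that also pairs 3 day 7 column numbers (chosen after seeing the data), and 50 with no filter. Scaling by library size alone, which shifted the median by -0.16, gave 69. Leaving out single libraries gave 22 to 318. The count was 38 without ONH replicate 2 and 59 without ONH replicate 6. It was 39, 52, 40, 59, 144 and 31 without ONP replicates 1 to 6 in turn. For day 7 it was 36, 58 and 318 without ONH libraries 1, 2 and 3, and 22 without ONP library 1, 2 or 4. Depth limits genes near 0.167 CPM, where 3 counts or fewer were read.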
